A study of Rattus norvegicus with 24 samples.

Results

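The low dose of tungsten was compared with control air in the frontal cortex of the rat. Adult male Sprague-Dawley rats inhaled an aerosol of tungsten particles, and poly(A) RNA of the frontal cortex was sequenced 24 h later, 8 rats per group. The titles of all 24 samples hold the word Repeat, and the paper does not say what was repeated. The 16 rats compared were the Low group, at 5 mg/m3 (libraries 57 to 64), and the Control group, at 0 mg/m3 (libraries 49 to 56), out of 24 rats in all. The 8 rats of the High group, at 80 mg/m3 (libraries 65 to 72), served as a reference and shared the fit. All 3 groups were of the same strain and sex, and the sources used here give no genotype and no hour of the day at which the tissue was taken. The sample labels speak of cell lines of the frontal cortex, whereas the methods of the study describe tissue, and the markers below are those of tissue. Nothing in the labels ties the libraries to separate exposures, so p-values measure the spread between these rats only.

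Genes were kept by position, not by their values. Of 32883 reference genes, 25789 lay on a nuclear chromosome or scaffold and overlapped no other reference gene in the tables, and 11823 of these reached a mean scaled coverage of at least 1 over the 24 rats. Coverage is the mean number of reads over each base of a gene, which StringTie reports per gene. It was divided by the sum over all reference genes of the library and multiplied by 1000000, which is called scaled coverage below. Differences were tested with limma on log2(scaled coverage + 1), all 15644 genes that reached the minimum were fitted together, and a change is called at a Benjamini-Hochberg adjusted p under 0.05. Fold changes are on that scale and understate the change of low genes.

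The tissue carried the markers of cortex. Slc17a7, the vesicular glutamate transporter of cortical excitatory neurons, had a median scaled coverage of 718 in Control rats and 608 in Low rats, and did not pass the test (adjusted p = 0.434, limma). Gad1 of inhibitory neurons, Gfap of astrocytes and Cx3cr1 of microglia were present in every rat. Ttr, which marks choroid plexus, had a median of 3.75 in Control rats and 3.69 in Low rats. Its values were uneven, from 0.554 to 68.4 in Control rats and from 2.07 to 11.6 in Low rats. Cldn5, which marks endothelium, was at or near 0 in both groups, and its entry overlaps another gene. In bulk tissue, fewer cells of a type and less RNA per cell cannot be told apart.

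Features of the libraries came before any result. The Low tables list 0 loci assembled from the reads, while those of Control 49 to 55 list 46334 to 66427. Control 56 alone lists 159573, and the High tables list 50235 to 64010. Because every Low table differs from every Control table in this way, the dose and the way the tables were made cannot be told apart. The bases by which the deposited FPKM was scaled were fewer in Low rats, 3.34 to 6.42 gigabases, than in Control rats, 5.05 to 7.86 gigabases (exact permutation p = 0.00249). Libraries 56 to 62, which are 1 Control rat and 6 Low rats, also stood apart from the other 17. In these 7 libraries the 8 mitochondrial tRNA genes encoded on the minus strand took 0.545 to 0.810% of coverage, against 0.00849 to 0.0155% elsewhere. Low 63 and Low 64, at 0.0108 and 0.0114%, were like Control 49 to 55. The genes called below are therefore also given, where they are described, with this division of libraries as a factor in the fit. The factor rests on Control 56, Low 63 and Low 64, since only these 3 rats separate it from the dose. The share of coverage in mitochondrial genes as a whole was 26.3 ± 4.01% in Low rats and 24.99 ± 2.90% in Control rats (SD, n = 8 each, exact permutation p = 0.486).

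Of the genes that overlap no other, 494 of 11823 differed between Low and Control rats, 4.18% of those tested. Coverage was higher in Low rats for 116 of them (0.981%) and lower for 378 (3.2%). Over all reference genes tested the share called was 6.11%. Genes with an ordinary symbol made up 82 of the 116 higher genes and 135 of the 378 lower genes, and 217 of 10076 such genes tested were called (2.15%). Clone names and predicted loci made up 26 of the higher and 205 of the lower genes. The lower genes moved further, with a fold of at least 2 in 217 of 378, against 15 of 116 among the higher genes. The 8 Low values lay wholly above the 8 Control values in 12 genes (0.101%), of which 10 were called (0.0846%), and wholly below them in 55 genes (0.465%), all of them called.

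The same test found 0 genes that differed between High and Control rats (0% of 11823), where 247 had an unadjusted p under 0.05 against 1910 for Low and Control. Between Low and High rats 1121 genes differed (9.48%), 598 higher (5.06%) and 523 lower (4.42%) in Low rats. Of the genes called between Low and Control, 86 of the 116 higher and 352 of the 378 lower were also called between Low and High. Both comparisons use the same Low rats, and High tables list assembled loci as Control tables do, so these are not separate evidence. In Low against High, too, the dose and the way the tables were made cannot be told apart.

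With libraries 56 to 62 as a factor, 133 genes were called (1.12%), 11 higher (0.093%) and 122 lower (1.03%), of which 6 and 109 were among the genes above. With the 7 libraries left out, which sets Low 63 and 64 against Control 49 to 55, 124 genes were called (1.05%), 6 higher (0.0507%) and 118 lower (0.998%). The sign was kept with the factor in 111 of the 116 higher and 338 of the 378 lower genes. None of the 82 higher genes with an ordinary symbol passed with the factor, while 48 of the 135 lower ones did. Single rats also moved the counts. The number of higher genes was 235 without Low 61 and 178 without Control 56, and it fell to 46 without Low 59 or Low 62, 48 without Control 51, 53 without Control 50, 58 without Low 60, 65 without Control 49, 74 without Low 58 and 76 without Control 54. Without Low 62, 317 genes were called in all, without Control 51, 325, and without Control 50 or Low 59, 329. Without Control 56, the genes called without overlap were 22 higher and 92 lower, and without Low 61 there were 44 higher.

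The circadian clock is a loop of transcription factors that runs in nearly every cell. CLOCK and BMAL1, the product of Arntl, switch on genes through E-box sequences, among them Per1, Per2, Nr1d2, Dbp and Ciart, and the PER, CRY and CIART proteins hold CLOCK and BMAL1 back. In the cortex these genes cycle with the hour of the day. Of 20 clock genes tested, 4 rose in Low rats and 1 fell, against 0.981% and 3.2% of all genes tested. The median log2 fold change of the 20 was 0.21, beside 0.06 over all genes tested, and 16 of the 20 lay above 0, beside 66.5% of all genes. Their median was 0.20 with the factor, and Clock alone was then called.

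Ciart (chromosome 2: 197987705 to 197991574, minus strand), which codes for the repressor also called CHRONO, rose the most. It ran from a scaled coverage of 3.73 to 13.3 in Control rats with a median of 8.60, and from 12.6 to 22.2 in Low rats with a median of 17.3. In 7 of 8 Low rats it was above every Control rat, and the highest Control value was that of library 56. The log2 fold change was 1.09 ± 0.22 (SE, limma adjusted p = 0.0023), and High rats, at 5.19 to 14.8 with a median of 8.39, differed from Low rats as well (adjusted p = 0.00927). Low 63 and Low 64, outside the division of libraries, were at 22.2 and 20.8, and with the factor the change was 1.06 (adjusted p = 0.0556).

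Nr1d2, the nuclear receptor REV-ERB beta that represses Arntl, ranged from 30.6 to 52.6 in Control rats, median 40.3, and from 51.8 to 74.0 in Low rats, median 60.2. Only library 56 among the Control rats reached into the Low range, and the log2 fold change was 0.55 ± 0.11 (limma adjusted p = 0.00178). Dbp, a transcription factor whose RNA cycles strongly, was at 70.8 to 181 in Control rats, median 104, and at 147 to 181 in Low rats, median 153. Control 56, at 181, was alone among Control rats in reaching the Low values, and the change was 0.56 ± 0.15 (limma adjusted p = 0.0234). Per2, a core repressor of the loop, was at 7.85 to 21.2, median 17.2, in Control rats. Its Low values ran from 15.9 to 36.5, median 26.6, with 6 of 8 above every Control rat and the highest in Low 64 and Low 63. Its change was 0.69 ± 0.19 (limma adjusted p = 0.027). With the factor the log2 fold changes of Nr1d2, Dbp and Per2 were 0.50, 0.39 and 0.82, and their adjusted p-values were 0.079, 0.52 and 0.0862.

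Clock itself (chromosome 14: 34446616 to 34502218, plus strand) went the other way. It was at 10.1 to 22.4 in Control rats, median 20.6, where Control 49 was the low value and the other 7 were at 18.2 or more. Low rats were at 1.54 to 12.2, median 9.69, and 5 of 8 lay below every Control rat. The log2 fold change of -1.21 ± 0.24 (limma adjusted p = 0.0017) was -1.21 also with the factor (adjusted p = 0.0358). With the share of minus-strand mitochondrial tRNA genes as covariate in place of the factor it was -1.17 and did not pass (limma adjusted p = 0.0503). Assembled loci of Control rats reached a median of 2106.5 bases past the annotated ends of Clock, and their part in the difference was not tested. The partner of Clock, Arntl, had a log2 fold change of -0.28 ± 0.10 and did not pass (limma adjusted p = 0.116).

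Other genes of the loop did not pass the test. Per1, which is also induced by neuronal activity, had a log2 fold change of 0.65 ± 0.25 (limma adjusted p = 0.145), and the repressor gene Bhlhe40 had one of 0.63 ± 0.22 (adjusted p = 0.0926). Tef and Hlf, relatives of Dbp, were at 0.21 and 0.28, Per3 at 0.33 and Cry2 at 0.21. Cry1, Rora, Rorb and Csnk1d lay between -0.03 and 0.13. The calls for Per2 and Dbp depended on single rats. Per2 was lost without Control 49, 50 or 51 or Low 60 or 62, with an adjusted p of at most 0.0614, and Dbp without Control 50, 51 or 52, with one of at most 0.058. Both kept their sign in every setting, as did the median of the list, which lay between 0.14 and 0.72.

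The starts of the clock genes that rose, and of the activity genes below, were read from RefSeq (GRCr8). The window ran from 250 bases before the start site to 50 after it and was searched on both strands for 3 motifs. These were CACGTG, an E-box read by CLOCK and BMAL1, and TGACGTCA, the full cyclic AMP response element. The other was the CArG box of the serum response element. Ciart is shown because it had the largest change and is the only one of the 6 promoters with a match. It holds 3 copies of CACGTG, in capitals, at 93, 35 and 21 bases before the start. A copy was found in 6.42% of 33469 rat promoters of this length.
Ciart: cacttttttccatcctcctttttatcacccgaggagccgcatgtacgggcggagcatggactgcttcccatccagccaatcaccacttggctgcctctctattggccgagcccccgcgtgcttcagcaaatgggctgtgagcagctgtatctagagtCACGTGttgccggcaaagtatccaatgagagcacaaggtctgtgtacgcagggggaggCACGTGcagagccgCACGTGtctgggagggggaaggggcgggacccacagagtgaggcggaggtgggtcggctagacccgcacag

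The promoter of Per2 is set beside it. In this window Per2, Dbp, Nr1d2, Junb and Egr4 hold none of the 3 motifs, which were found in 6.42, 1.83 and 1.64% of all promoters, in the order above. Only these forms were searched, and near copies such as CACGTT, which the Per2 window holds, were not counted. The lack of a match is therefore not the lack of a site.
Per2: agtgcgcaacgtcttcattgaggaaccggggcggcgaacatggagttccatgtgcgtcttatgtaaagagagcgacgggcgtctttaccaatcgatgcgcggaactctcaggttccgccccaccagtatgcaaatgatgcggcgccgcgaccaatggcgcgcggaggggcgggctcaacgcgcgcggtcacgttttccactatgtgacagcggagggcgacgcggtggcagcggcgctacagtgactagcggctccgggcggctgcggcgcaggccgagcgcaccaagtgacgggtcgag

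Immediate early genes are transcribed within minutes of neuronal firing or of a growth signal, and their products are transcription factors (FOS, JUN, EGR and NR4A proteins, NPAS4) and synaptic proteins such as ARC. Of 23 such genes tested, 2 rose in Low rats and 0 fell, against 0.981% and 3.2% of all genes tested. Their median log2 fold change was 0.40, beside 0.06 for all genes, and 21 of 23 were above 0. Against Control, the median in High rats was -0.32. The median was 0.52 with the factor, where 0 were called, and 0.70 with libraries 56 to 62 left out, and over all settings it lay between 0.34 and 0.92.

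Junb, a subunit of the AP-1 factor, was at a scaled coverage of 43.9 to 95.2 in Control rats, median 69.1. In Low rats it was at 76.2 to 154, median 119, and 6 of 8 lay above every Control rat. High rats were at 31.5 to 87.6, median 52.2, mostly under the Low values. The log2 fold change was 0.71 ± 0.19 (limma adjusted p = 0.0274), and Low differed from High at an adjusted p of 0.000194. Egr4, a zinc finger factor of the EGR family, was at 19.2 to 38.0 in Control rats, median 28.6, and at 33.7 to 53.1 in Low rats, median 43.5. Here too 6 of 8 Low rats lay above every Control rat, and the change was 0.56 ± 0.16 (limma adjusted p = 0.0298). With the factor the changes were 0.82 for Junb and 0.65 for Egr4, with adjusted p-values of 0.111 and 0.124. Junb lost its call without Control 49, 50, 51 or 55 or Low 59 or 62, with an adjusted p of at most 0.0674, and Egr4 without Control 50, 51 or 55 or Low 58, 59 or 62, with one of at most 0.0715.

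The best known members had large but unequal values and did not pass between Low and Control. Arc, whose protein acts at active synapses, was at 57.8 to 177, median 83.3, in Control rats and at 87.9 to 285, median 171, in Low rats, of which 4 lay above every Control rat (0.79 ± 0.31, limma adjusted p = 0.154). Npas4, a factor induced by calcium entry, was at 8.93 to 24.3, median 16.1, in Control rats and at 16.2 to 46.2, median 26.1, in Low rats (0.78 ± 0.29, adjusted p = 0.121). Egr1 had a log2 fold change of 0.64 ± 0.22, Egr2 of 0.94 ± 0.32 and Fos of 0.49 ± 0.25, with adjusted p-values of 0.0883, 0.085 and 0.297. Nr4a2 and Fosl2 were the members below 0, at -0.46 and -0.31. Between Low and High rats Arc, Npas4, Egr1, Egr2 and Fos passed, with adjusted p-values of 0.000925, 0.000288, 0.00467, 0.00438 and 0.00551. Part of this gap lay in the High rats, which were below Control for all of these genes. Their log2 fold changes against Control were -0.85, -0.88, -0.32, -0.47 and -0.59, in the same order, and none passed. Low 63 and Low 64 were above the Low median for Arc, Npas4, Egr1, Egr2 and Fos.

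**Figure D1:**
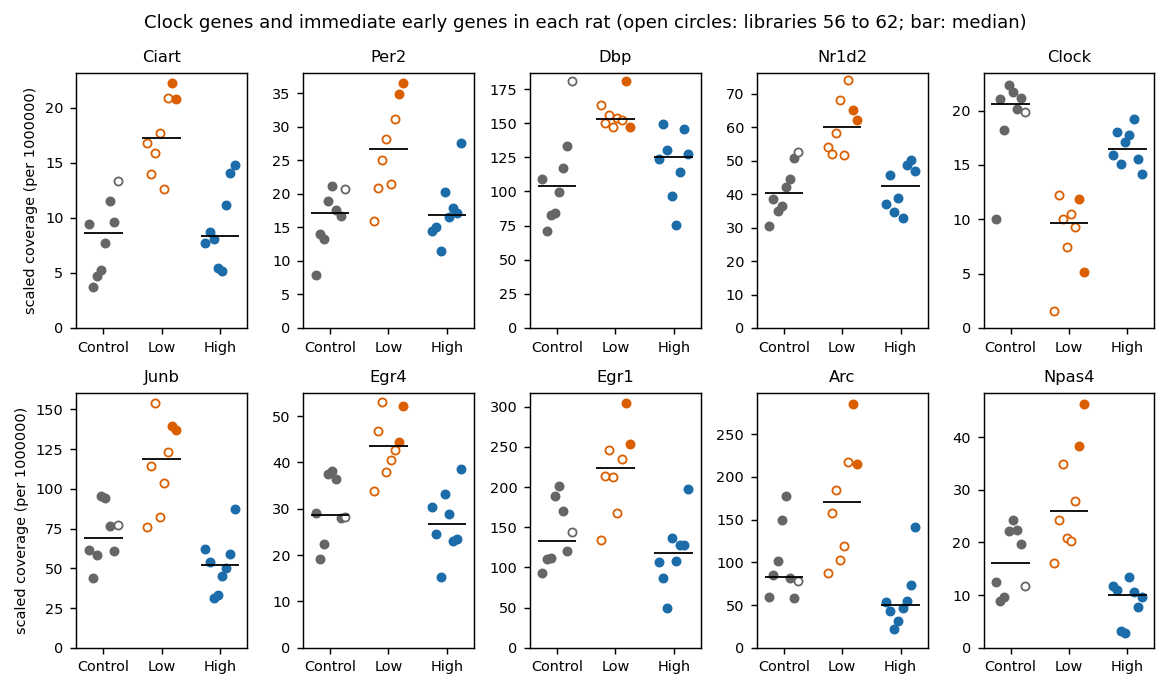
Scaled coverage of 5 clock genes and 5 immediate early genes (vertical axis, linear from 0) in each rat of the Control, Low and High groups, 8 rats each. Open circles are libraries 56 to 62 and bars are medians. Ciart, Per2, Dbp, Nr1d2, Junb and Egr4 were called higher and Clock lower in Low rats, while Egr1, Arc and Npas4 did not pass.

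Among the other higher genes, 5 with an ordinary symbol were above every Control rat in all 8 Low rats, and all 5 also passed between Low and High. They were singled out after their values were seen. Ddo, D-aspartate oxidase, which degrades D-aspartate, was at a scaled coverage of 6.63 to 10.8 in Control rats, median 8.35, and at 12.7 to 18.5 in Low rats, median 14.5 (0.75 ± 0.17, limma adjusted p = 0.00681). Kdelr2, a receptor that returns proteins to the endoplasmic reticulum, was at 22.9 to 29.3 in Control rats and at 30.5 to 36.6 in Low rats (0.30 ± 0.06, adjusted p = 0.00178). Nrsn1, a neuronal membrane protein, was at 223 to 274 in Control rats and at 277 to 335 in Low rats (0.30 ± 0.08, adjusted p = 0.027). The others were Cd24, a surface glycoprotein (0.33 ± 0.10), and a 766-base entry named Ptma on chromosome 13 (0.35 ± 0.07), whose reads could be shared with other copies of that gene. With the factor, their changes were 0.26 to 0.71 and their adjusted p-values 0.0782 to 0.518.

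Single members of larger pathways rose by small amounts, where 0.981% of all genes tested were called higher. Herpud1, which acts in the disposal of misfolded proteins of the endoplasmic reticulum, was the 1 of 17 genes of that stress response called higher (0.33 ± 0.09, adjusted p = 0.0376). Insig1, a brake on sterol synthesis, was the 1 of 20 cholesterol genes (0.26 ± 0.07, adjusted p = 0.0283). Smc2, a condensin subunit, was the 1 of 19 chromosome condensation and segregation genes (0.26 ± 0.07, adjusted p = 0.0341). Etv1, a factor of deep-layer cortical neurons, was the 1 of 16 excitatory neuron markers (0.41 ± 0.12, adjusted p = 0.0376). With the factor the limma adjusted p-values of these 4 were 0.18, 0.0735, 0.345 and 0.263. Leaving out Control 49, 50, 51 or 55 or Low 59 or 60 ended these 4 calls and those of Nrsn1 and Cd24, and other rats ended some of them, with adjusted p-values of at most 0.0915.

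Lower genes included several whose coverage was close to absent in Low rats. Knop1 (ENSRNOG00000048270, chromosome 1: 188368581 to 188373571), a nucleolar protein gene, is listed at 0 in all 8 Low rats, while Control rats were at 6.19 to 9.59, median 8.10, and High rats at 5.11 to 8.64, median 7.33. Another entry of the same symbol, which overlaps another gene, was at 12.4 to 14.7 in Low rats and at 11.3 to 13.8 in Control rats. Slc40a1, ferroportin, the iron exporter of cells, is listed at 0 in all 8 Low rats as well. Control rats were at 2.002 to 3.78, median 2.56, and High rats at 0.863 to 2.60, median 2.04. Lefty2, an antagonist of NODAL signalling, is likewise listed at 0 in all 8 Low rats, against 1.07 to 2.21 in Control rats and 1.27 to 2.24 in High rats. In all, 22 genes were listed at 0 in every Low rat and 0 genes in every Control rat, of 11823 tested. The minimum mean was taken over Control, Low and High rats together. A gene at 0 in every Low rat could reach it through Control and High rats, whose tables both list assembled loci. A gene at 0 in Control and High rats alike had to reach it through Low rats alone. The filter thus favoured the first kind of gene, and the counts of 22 and 0 are not an even comparison. A listed 0 can be a failed estimate of the program, and no fold is given for the genes listed at 0 in every Low rat. With the factor, Knop1, Slc40a1 and Lefty2 had limma adjusted p-values of 4.23e-16, 3.4e-10 and 1.15e-08. The Low values of each are all 0 and add no spread, so these p-values do not measure a spread between Low rats.

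Other genes were near 0 in most Low rats but not in all. Sec14l4, of a family of lipid-binding proteins, was at 70.3 to 152 in Control rats, median 101, and at 99.2 to 145 in High rats. In Low rats 7 libraries were at 0.0281 to 0.13 and Low 59 was at 99.0, within the range of Control (limma adjusted p = 7.81e-07, and 3.99e-06 with the factor). Nhp2, of the ribonucleoproteins that modify ribosomal RNA, is listed at 0 in 6 Low rats and was at 18.3 to 27.1 in Control rats (limma adjusted p = 0.00159, and 0.00294 with the factor). Another Low rat reached 34.5, above every Control rat, and the remaining Low rat was within the Control range of Nhp2. Rsl1d1l1, a ribosomal L1 domain gene, is listed at 0 in 6 Low rats and was at 17.7 and 18.8 in the other two, within the Control range of 15.5 to 20.5 (limma adjusted p = 0.000318, and 0.0363 with the factor). With libraries 56 to 62 left out Rsl1d1l1 did not pass (adjusted p = 0.0886). Assembled loci of Control rats reached a median of 113054 bases past it, and their part in the difference was not tested. Values in the same tables thus switched between near 0 and the Control level within the Low group.

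Some lower genes have another entry under the same symbol that was not called. Nol8 (ENSRNOG00000046968), a nucleolar protein gene, was at 3.68 to 6.02 in Control rats and at 0.395 to 1.08 in Low rats (-1.82 ± 0.10, limma adjusted p = 1.88e-13), while its other entry on chromosome 17 had a log2 fold change of -0.02 (adjusted p = 0.912). Rps4x, a ribosomal protein gene, has a 972-base entry on chromosome 4 that was at 26.4 to 36.1 in Control rats and at 15.3 to 21.1 in Low rats (-0.84 ± 0.08, adjusted p = 4.75e-09). Its entry on the X chromosome, at 205 to 291 in Control rats, had a log2 fold change of 0.15 (adjusted p = 0.324). These entries of Nol8 and Rps4x were at -1.82 and -0.90 with the factor (limma adjusted p = 1.19e-10 and 2.69e-07). Cox6b1, a respiratory chain subunit, was called lower in a 261-base entry (-0.66 ± 0.19, limma adjusted p = 0.0346) and was at 0.02 in the other (adjusted p = 0.898). The short entry followed libraries 56 to 62, and its change was -0.04 with the factor (adjusted p = 0.938). The call for the short Cox6b1 entry was lost without any one of 11 rats, with an adjusted p of at most 0.0817. Reads of near-identical copies can be split between entries, so the values of these genes are uncertain.

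Genes at ordinary levels were also lower without overlap. Of the 55 genes wholly below the Control values, 20 had an ordinary symbol, all 20 passed between Low and High, and 17 passed with the factor. Neither result separates the dose from the way the Low tables were made. Those named here beyond the rule were chosen after their values were seen. Reep2, which shapes the endoplasmic reticulum of neurons, was at 107 to 143 in Control rats, median 132, at 120 to 147 in High rats, and at 49.9 to 73.6 in Low rats, median 65.2 (-1.05 ± 0.07, limma adjusted p = 1.66e-11). Mydgf, a secreted growth factor, was at 61.7 to 77.1 in Control rats and at 32.7 to 49.6 in Low rats (-0.75 ± 0.07, adjusted p = 6.95e-09). With the factor, Reep2 and Mydgf were at -0.96 and -0.72, with adjusted p-values of 1.59e-08 and 2.86e-06.

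The set also held genes of other kinds. Crem, the cyclic AMP response element modulator, was low in all groups, at 1.18 to 1.86 in Control rats and 0.418 to 0.689 in Low rats (-0.69 ± 0.08, limma adjusted p = 5.65e-07, and -0.58 with the factor, adjusted p = 0.000276). Rxrb, a retinoid X receptor, had a log2 fold change of -0.51 ± 0.06, Thoc1, of the complex that exports messenger RNA, one of -0.51 ± 0.06, and Pou3f3, a factor of upper-layer neurons, one of -0.43 ± 0.06. In Pou3f3 the assembled loci of Control rats reached a median of 49830.5 bases past the gene. Rgs8, which shortens G protein signals, was at 13.4 to 24.9 in Control rats and 7.98 to 12.7 in Low rats (-0.80 ± 0.12). Add3, an adducin of the membrane skeleton, fell by 0.73 ± 0.11, Elovl1, an elongase of long fatty acids, by 0.71 ± 0.12, Acad8, of valine breakdown, by 0.58 ± 0.10, and Hax1, a mitochondrial survival protein, by 0.32 ± 0.05. The 8 genes from Rxrb to Hax1 had limma adjusted p-values from 1.24e-06 to 0.000359, and with the factor from 0.000538 to 0.0551. The direction of many of these depended on the column used. In the deposited FPKM column, Reep2, Crem, Rxrb, Pou3f3, Rgs8, Elovl1 and Hax1 were above 0, at 0.31, 1.10, 0.64, 0.83, 0.60, 0.41 and 0.35, beside a median of 0.53 over all genes in that column. Crem, Rxrb, Pou3f3 and Rgs8 were thus also above that median. In the deposited TPM column Crem, Rxrb, Pou3f3, Rgs8 and Elovl1 were above 0 as well, while Reep2 and Hax1 kept their sign but not their call. The cause was not tested.

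**Figure D2:**
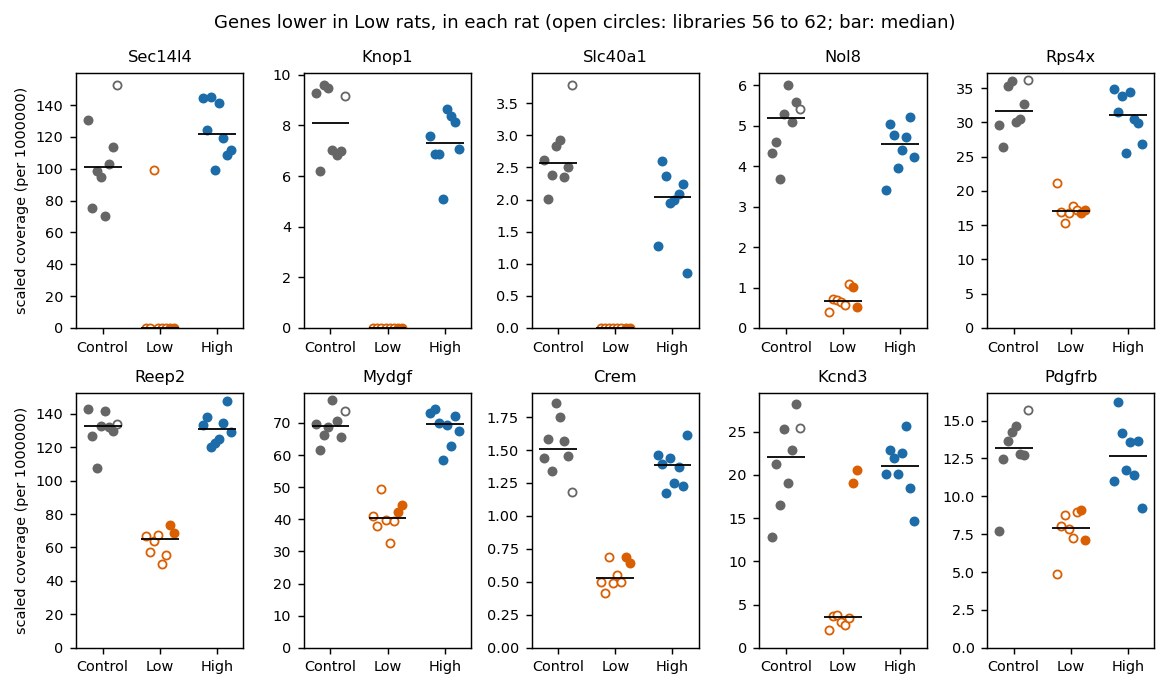
Scaled coverage of 10 genes called lower in Low rats (vertical axis, linear from 0) in each rat of the Control, Low and High groups, 8 rats each. Open circles are libraries 56 to 62 and bars are medians. Knop1 and Slc40a1 are at 0 in all 8 Low rats, Low 59 stands at 99.0 for Sec14l4, and Low 63 and 64 stand near the Control rats for Kcnd3.

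Some members of neuronal and vascular lists fell. Kcnd3, the potassium channel Kv4.3, was at 12.8 to 28.2 in Control rats, median 22.0, and at 2.02 to 3.80 in Low 57 to 62, but at 19.1 and 20.5 in Low 63 and 64. Control 56 was at 25.4, so this gene followed neither the division of libraries nor the dose as a whole (-1.84 ± 0.32, limma adjusted p = 0.000419, and 0.147 with the factor). Kcnn2, the small-conductance calcium-activated channel SK2, fell by 0.68 ± 0.15 (adjusted p = 0.00553), and Control 56, at 6.51, was within the Low range. With the factor Kcnn2 was at -0.35 and did not pass (limma adjusted p = 0.518). The other 18 potassium channel genes tested were not called, and the median of all 20 was 0.10. Dlg3, the synaptic scaffold SAP102, was at 39.6 to 62.9 in Control rats and at 28.8 to 48.7 in Low rats (-0.49 ± 0.10, limma adjusted p = 0.00345, and 0.02 with the factor). Ntrk3, the receptor of neurotrophin 3, fell by 0.35 ± 0.09 from a median of 1.90 (limma adjusted p = 0.0171), and with the factor it was at -0.29 and did not pass (adjusted p = 0.373). Pdgfrb, the receptor that marks pericytes, was at 7.71 to 15.7 in Control rats and at 4.85 to 9.11 in Low rats (-0.68 ± 0.13, adjusted p = 0.000902), and with the factor the change was -0.71 (adjusted p = 0.014). It was the 1 of 10 pericyte and smooth muscle genes called, and their median was -0.05.

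Stress and housekeeping lists each gave at most 1 lower gene. Becn1, of autophagy, fell by 0.25 ± 0.06 (adjusted p = 0.00993, and 0.0388 with the factor), and Hspe1, the mitochondrial chaperonin HSP10, by 0.39 ± 0.10 (adjusted p = 0.0131, and 0.328 with the factor). Tap2, which carries peptides for antigen presentation, fell by 0.92 ± 0.26 (adjusted p = 0.0315) and was listed at 0 in 4 Low rats, and Srsf3, a splicing factor, fell by 0.23 ± 0.07 (adjusted p = 0.0406). Neither passed with the factor, where Tap2 was at -0.66 and Srsf3 at -0.29 (limma adjusted p = 0.537 and 0.0793). Tap2 and Srsf3 lost their calls without 7 and 10 of the 16 rats left out in turn, and in the deposited FPKM column Becn1, Hspe1, Dlg3, Kcnn2, Ntrk3, Pdgfrb and Srsf3 were above 0.

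Few genes of the lists tied to metals and oxidative stress were called. Of 15 metallothionein, zinc and iron genes tested, Slc40a1 alone was called, 13 were above 0, beside 66.5% of all genes, and the median of the list was 0.12, beside 0.06 for all genes. Mt3, the metallothionein of neurons and astrocytes, was at 881 to 1365 in Control rats, median 945, and at 878 to 1267 in Low rats, median 958 (-0.01 ± 0.09, limma adjusted p = 0.966). Tfrc, the transferrin receptor that takes up iron, had a log2 fold change of 0.24 ± 0.08 and did not pass (adjusted p = 0.0944). Among 24 NRF2 targets and glutathione genes and among 7 genes of the cofactor of molybdenum, a metal chemically close to tungsten, 0 were called, with medians of 0.06 and 0.06 and 20 and 6 genes above 0. The 0 called among 16 genes of cytokines and NF-kB and among 18 of the hypoxia response came with medians of 0.11 and 0.12. Of the 49 lists, 30 had no gene called.

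Markers of striatum, meninges and blood were lower on balance in Low rats, and none of them passed the test without the factor. Of 16 striatal neuron markers, 2 had a log2 fold change above 0, and the median was -0.41 (0.11 in the FPKM column). Their summed scaled coverage was 614 to 1329 in Control rats, median 870, and 414 to 1061 in Low rats, median 712. In High rats it was 368 to 1811, median 678, so the striatal median was not lower in Low rats alone. Drd1 and Drd2, the dopamine receptors that define striatal neurons, had medians of 19.3 and 15.1 in Control rats and 15.3 and 9.09 in Low rats, and neither is at 0 in any group. Of 7 genes of meninges and fibroblasts, 0 were above 0, with a median of -0.49 and sums of 170 to 295 in Control and 94.0 to 231 in Low rats. Of 6 blood genes, 1 was above 0, with a median of -0.27 (0.23 in the FPKM column) and sums of 760 to 1672 in Control and 463 to 1375 in Low rats. Median sums in Control, Low and High rats were 184, 128 and 189 for meninges and 1017, 879 and 957 for blood. For choroid plexus and ependyma, 1 of 3 genes was above 0 and the median was -0.08. The median sums of these were 7.80 in Control and 9.38 in Low rats. Control 56 had the highest sums of meninges and blood markers in the Control group, and Low 64 the lowest of both in the Low group. The medians of the striatal, meninges and blood markers were -0.80, -0.82 and -0.72 with the factor, where Igfbp2 of the meninges list and Hba-a2 of the blood list were called lower (limma adjusted p = 0.0353 and 0.0375). The part of these markers in the results above was not tested.

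**Figure D3:**
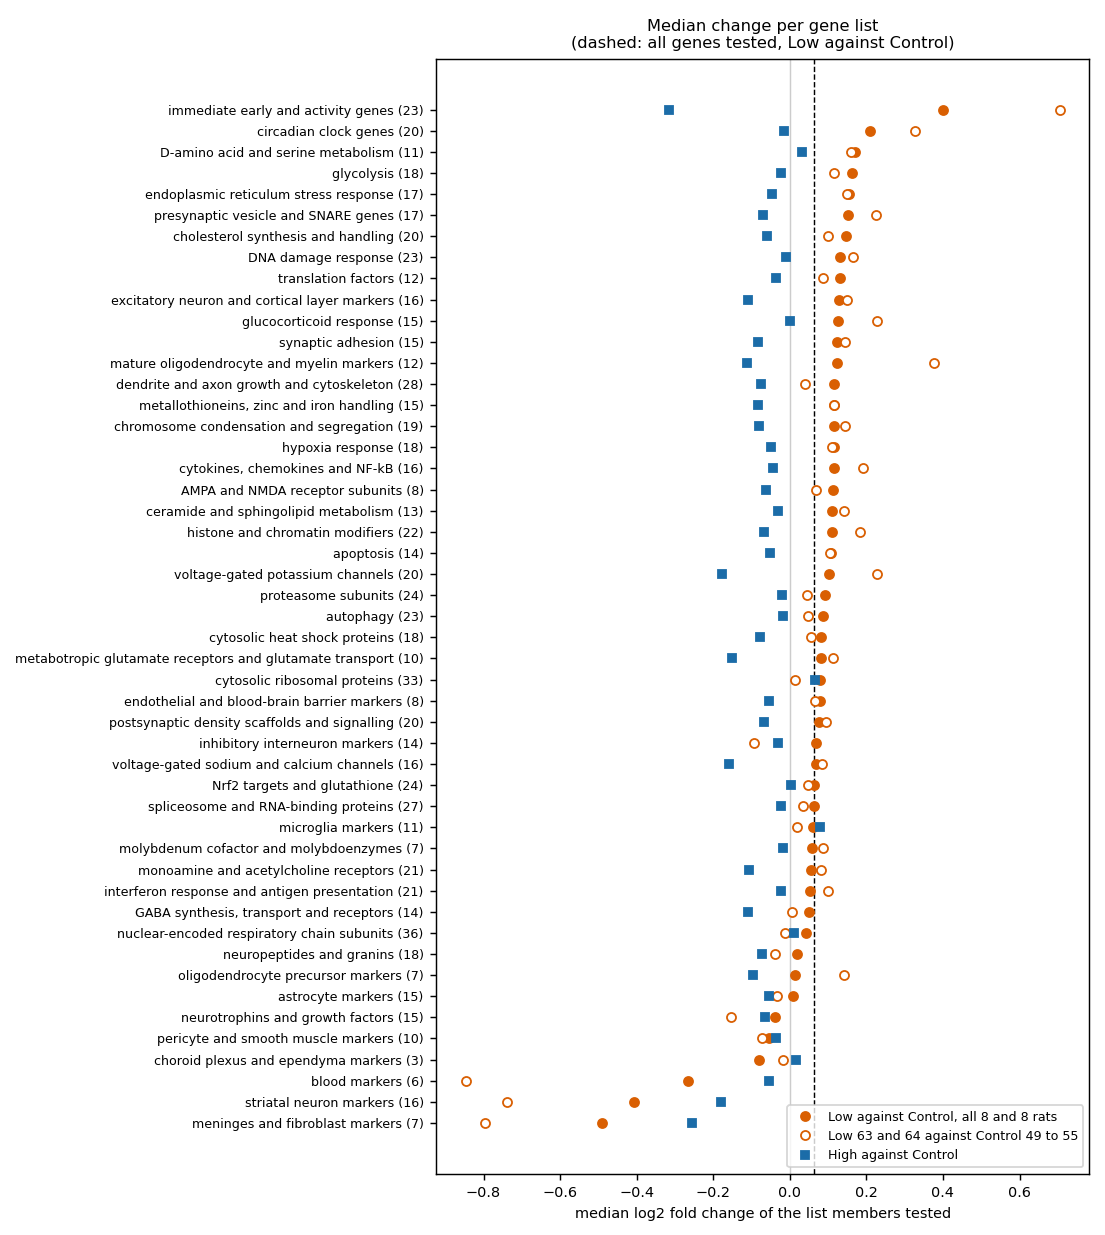
Median log2 fold change (horizontal axis) of the members tested of each of 49 gene lists (vertical axis, number of genes tested in brackets). Filled circles show Low against Control, open circles Low 63 and 64 against Control 49 to 55, and squares High against Control. The immediate early genes, at 0.40, and the clock genes, at 0.21, are the highest medians of Low against Control, and the markers of striatum, blood and meninges, at -0.41, -0.27 and -0.49, are the lowest. The other 44 lists lie between -0.08 and 0.17.

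Genes of short RNAs were the class with the largest share of calls. A microRNA is cut as a short duplex from a hairpin in a longer transcript, and small nucleolar RNAs guide the modification of ribosomal RNA, often from introns of host genes. Poly(A) libraries do not capture either mature form by design, and which RNA gave the coverage at these loci was not tested. Of 41 microRNA genes tested, 2 were higher (4.88%) and 15 lower (36.6%), and of 27 snoRNA genes, 1 was higher (3.7%) and 12 were lower (44.4%). Of 69 genes of snRNAs and other small RNAs, 3 were higher (4.35%) and 3 lower (4.35%). Genes spanning under 300 bases made up 117 of the 378 lower genes and 1.55% of the 11329 genes not called. RefSeq (GRCr8) holds mature sequences for 16 of the 17 microRNA genes called, and no seed, the bases 2 to 8 that pair with targets, is shared between these genes. The mature sequences of the named loci with the largest changes are shown, with the seed in capitals.
miR-770-5p: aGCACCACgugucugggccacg
miR-22-3p: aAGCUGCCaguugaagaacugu
miR-138-5p: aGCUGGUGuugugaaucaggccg
miR-568: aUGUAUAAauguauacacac
miR-3074: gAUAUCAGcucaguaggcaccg
miR-9b-5p: uUCGGUUAucuagcuuuau

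Most of these loci followed the division of libraries and not the dose. Mir770 (chromosome 6: 133682957 to 133683050, plus strand) was at 0 to 2.27 in Low 57 to 62 and at 1.90 in Control 56, but at 502 and 512 in Low 63 and 64 and at up to 525 in the other Control rats (-4.87 ± 1.29, limma adjusted p = 0.0246, and -0.04 with the factor). Mir138-2, Mir3072 and SNORD29 are listed at 0 in Low 57 to 62 and in Control 56, and reached 21.1, 25.6 and 26.3 in Low 63 or 64. Mir568 was at 0 to 0.903 in Low 57 to 62 and at 0 in Control 56, and at 41.4 and 47.3 in Low 63 and 64. With the factor, the changes of these 4 loci ran from -0.51 to 0.32 and none passed. SNORD79 and Smim10l1, the second a short protein-coding gene, behaved alike, at -0.08 and -0.66 with the factor.

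Mir22 was the exception among the named microRNA loci. It was at 16.9 to 52.9 in Control rats, where Control 56 had the lowest value, and at 18.8 to 55.6 in High rats. Low 57 to 62 are listed at 0, and Low 63 and 64 were at 9.12 and 10.7, so that all 8 Low rats lay below all Control rats (-4.21 ± 0.48, limma adjusted p = 5.8e-07). With the factor the change was -2.61 (adjusted p = 2.17e-06). Assembled loci of Control rats reached a median of 4658.5 bases past this 95-base locus.

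Some short RNAs rose in the same 7 libraries. The U2 entry on chromosome 3, of a spliceosomal RNA, was at 147 to 223 in Low 57 to 62 and at 168 in Control 56, and at 1.40 or less in all other Control and Low rats (4.504 ± 1.19, limma adjusted p = 0.0237, and -0.02 with the factor). It is 1 of 86 entries with this name, of which 13 were tested and 1 was called. Mir3074 was at 9.22 to 18.9 in Low 57 to 62 and at 21.3 in Control 56, and is listed at 0 in Low 63 and 64. Mir27b, on the opposite strand of chromosome 17 within the same cluster, was called lower (-1.92 ± 0.49, limma adjusted p = 0.0173, and -0.15 with the factor, adjusted p = 0.87), so strands of 1 locus moved apart in these libraries. Mir3597-2, whose mature products RefSeq names miR-9b, a U6 entry and SNORA70 showed the same division, with values of at most 0.329, 0 and 1.52 in Control 49 to 55. Of 7 U6 entries tested, 1 was called higher and 2 lower. Longer genes with this pattern were Ccdc152, Ghrl (the ghrelin gene), Vsig2, Mybph and the 7SK entry on chromosome 1, with log2 fold changes from 0.91 to 1.40 and, with the factor, from -0.07 to 0.26. Trpv6, a calcium channel, was at 12.6 to 22.5 in Low rats and at 6.76 to 15.8 in Control rats, where Control 56 was highest (0.83 ± 0.24, limma adjusted p = 0.0366). With the factor Trpv6 was at 0.49 (adjusted p = 0.63).

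**Figure D4:**
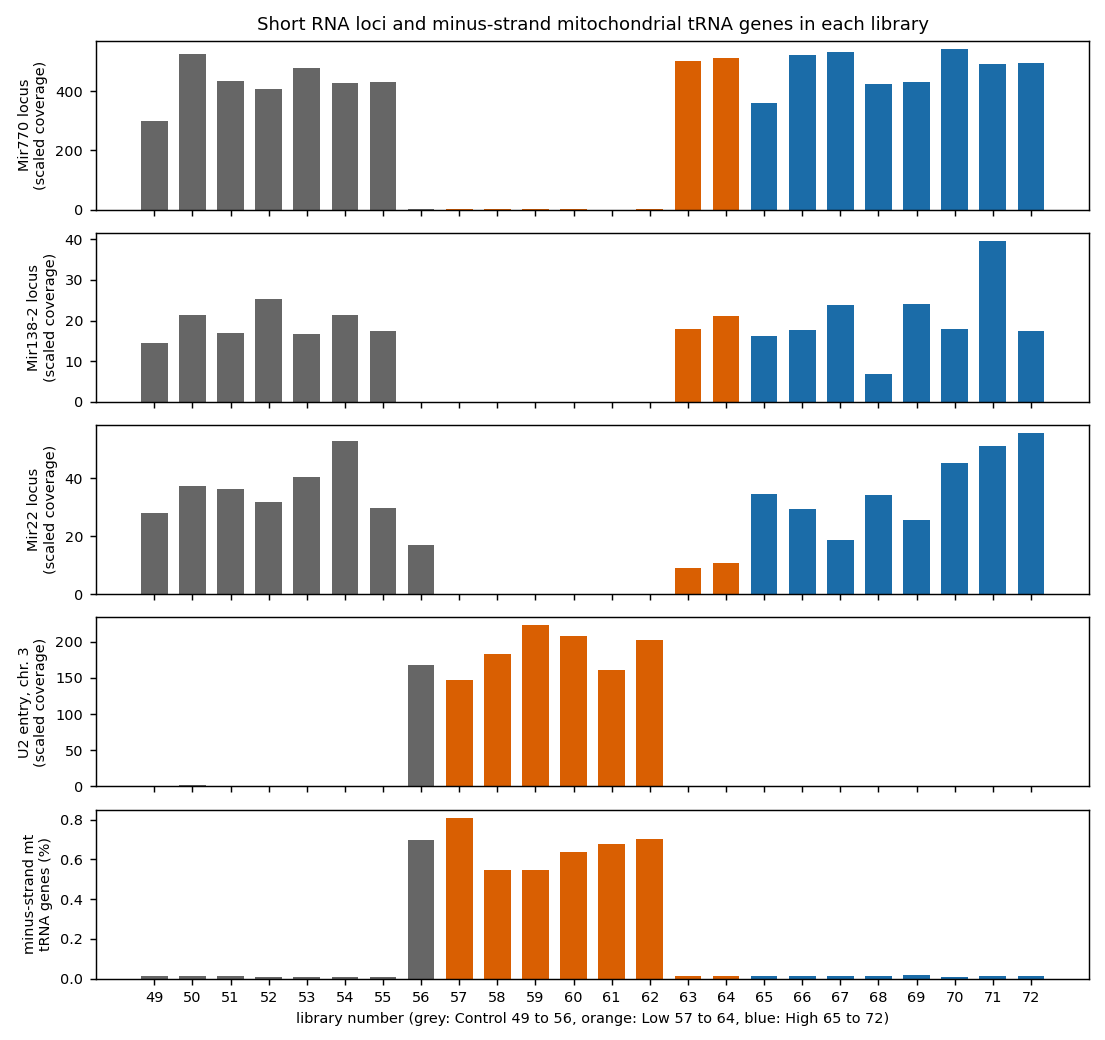
Scaled coverage of 4 short RNA entries (upper 4 panels) and the percentage of coverage in the 8 minus-strand mitochondrial tRNA genes (lowest panel), on linear axes from 0, in each of the 24 libraries by number. Bars of libraries 56 to 62 are near 0 for Mir770 and Mir138-2 and high for U2 and the tRNA genes, while Mir22 is low in all 8 Low libraries.

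By pattern, 136 of the 378 lower genes followed libraries 56 to 62, with a median span of 126.5 bases, and 131 followed the dose label, with a median span of 8067 bases. A gene followed the libraries where Control 56 lay nearer to Low 57 to 62 and Low 63 and 64 nearer to Control 49 to 55, it followed the dose label where both were the other way round, and the other 111 were mixed. Of the 11329 genes not called, 27.5% followed the libraries and 27.2% the dose label. Among the 116 higher genes, 16 followed the libraries, 58 the dose label and 42 neither, with median spans of 154, 12644.5 and 12827 bases. Assembled loci of Control rats reached over 5000 bases past the gene in 29.9% of the lower genes, in 9.48% of the higher genes and in 11.9% of those not called. Among lower genes with an ordinary symbol the share was 14.1%. The part of these loci in the lower values was not tested.

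Many of the calls in the last paragraphs were lost without single rats. Those for Mir3074, Mir3597-2, Mir568 and Mir3072 were lost without any one of Control 49 to 55 or Low 57 to 62, with limma adjusted p-values of at most 0.1002. Those for Ccdc152, Ghrl, SNORA70, Trpv6, Mir138-2 and Smim10l1 were lost without any one of 10 to 12 rats, with adjusted p-values of at most 0.115. Mir770 was lost without Control 50 or Low 57, 58, 59, 60 or 62, with one of at most 0.0561. U2 was lost without Control 49 or 55 or Low 57, 58, 59, 60 or 62, and 7SK without Control 49 or 52 or Low 57, 59 or 62, with adjusted p-values of at most 0.0621. U6, SNORD29, SNORD79, Vsig2, Mybph, Mir22, Sec14l4, Nhp2, Rsl1d1l1, Knop1 and Slc40a1 kept their calls without each rat in turn.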

How the data were processed

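Frontal cortex RNA of 24 rats (Control, Low and High, 8 each) was sequenced by the authors with the TruSeq Stranded mRNA kit on an Illumina NovaSeq machine. The submitters' processing notes name FastQC, Trimmomatic, TopHat2, StringTie and mRatBN7.2, without versions. Positions are those of the tables and reach base 282724300 of chromosome 1, so the build is not certain. The authors deposited 1 StringTie table per rat. Its coverage, used here, is a signal of mean depth per base, not scaled by the authors. The deposited FPKM is scaled per kilobase and by sequenced bases, the deposited TPM adds up to 1000000 for each Low rat, and in Control and High tables the deposited TPM column is used as a score only, since it sums to more. These 2 columns served as alternatives. The tables hold no read counts, so counting error is unknown.

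Coverage of each gene was summed per gene ID and scaled to 1000000 over reference genes. limma 3.58.1 (trend and robust, R 4.3.3, two-sided) was fitted on log2(value + 1) with all 3 groups, for genes with a mean of at least 1. Sample values such as shares of coverage were compared by exact permutation over the 12870 splits of 16 rats. Named genes were the 12 largest called changes per direction with a symbol and up to 4 called members per direction of each of 49 lists (37 of function, 12 of cell types), and genes without overlap and further list members were added after their values were seen. Values of 1 called list member are not reported here, while counts and medians include it. The comparison, the lists and the tests were chosen with earlier results of these data known. The division of libraries 56 to 62 was drawn from the data and is not a condition, and leaving these libraries out was chosen after seeing the data. The fits were tested on simulated data. Tables and figures were made in Python 3.11.15 with scipy 1.17.1, pandas 2.3.3, matplotlib 3.10.9 and numpy 2.4.6. Alternatives were another pseudocount (0.1), other filters and scalings, the other columns, exact Wilcoxon tests, the factor or the tRNA share as a term, genes at least 5000 bases from others, subsets of rats and each rat left out.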

Additional observations from a re-analysis of the deposited data

Results flagged for a closer look

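A group of 8 rats was picked out where its highest or lowest value stood far from the nearest of the others, judged against the critical value of Dixon's test for 8 samples. The test was made on 161 sets of 8 values, those of the 81 named genes and of the mitochondrial share in each group that were not all equal, and 25 values were picked out. Chance alone picks about 1 in 20 only among normal values that were not selected. Most of these genes were chosen from the same data, so no excess is read from the count. Values are scaled coverage, each with the next value of the same group.

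Control 56 was the highest Control rat for U2 (168, next 1.4), Mir3074 (21.3, next 0.363), U6 (3.75, next 0), Mir3597-2 (14.9, next 0.329), Ccdc152 (10.3, next 2.41), Ghrl (4.41, next 0.328), Vsig2 (2.78, next 1.25), Mybph (18.5, next 7.3) and 7SK (14.7, next 8.43). It was the lowest for Mir770 (1.9, next 298), Mir3072 (0, next 14.8), Mir138-2 (0, next 14.6) and SNORD79 (0, next 11.2). These are genes that followed libraries 56 to 62.

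Low 59 was the highest Low rat for Sec14l4 (99, next 0.13) and Kdelr2 (36.6, next 33.2). Low 57 was the highest for Hspe1 (180, next 144), Rps4x (21.1, next 17.7) and Mt3 (1267, next 1034) and the lowest for Ntrk3 (0.86, next 1.18), Pdgfrb (4.85, next 7.13) and Add3 (25.1, next 41.2). Control 49 was the lowest Control rat for Clock (10.1, next 18.2) and Pdgfrb (7.71, next 12.4) and the highest for Mt3 (1365, next 1084). Control 51 was the lowest for Reep2 (107, next 127).

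Outside the nuclear genes compared, the 8 minus-strand mitochondrial tRNA genes took a median of 0.591% of coverage in Low rats and 0.01% in Control rats (exact permutation p = 0.0244), with the high values in Low 57 to 62 and Control 56.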

How the results depend on the processing

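No paired analysis was possible because the library numbers are not shared between groups. In place of the 494 calls (116 higher, 23.5%), the FPKM column gave 9401, of which 358 were among the 494 (9209 higher, 98.0%, and 192 lower, with 5350 higher and 21 lower without overlap) and the TPM column 2660, of which 464 were among the 494 (2279 higher, 85.7%, 346 higher and 36 lower without overlap). The median of all genes moved by 0.47 and 0.10 (log2) in these columns, whose scaling differs between Low and the other tables. Without scaling 280 were called, 14 higher (5% of calls, 2 without overlap), by exact Wilcoxon tests 142 (45 higher and 97 lower), with only Low and Control rats in the fit 257 (49 and 208), with a minimum mean of 5 291 (74 and 217, 30 lower without overlap), at least 5000 bases from other genes 237 (69 and 168, 6 higher without overlap, fewer genes being tested), and without Control 49 and Low 57 328 (56 higher). With only non-overlapping genes in the fit 56 were higher, with no filter 142 were lower without overlap, and scaled to nuclear genes 19 were higher without overlap. With libraries 56 to 62 as a factor 133 were called (11 and 122, 2 higher without overlap), with the tRNA share as covariate 126 (10 and 116, 2 higher without overlap), and with the libraries left out 124 (6 and 118, 6 and 116 without overlap). Leaving out 1 rat at a time gave 317 to 646 calls, 46 to 235 higher and 268 to 468 lower, with 8 to 44 and 55 to 92 without overlap. Where no cause is given, the cause was not tested. 

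Of 2528 values of named genes under alternatives, 1943 kept sign and side of the threshold, 493 kept the sign and lost the call, 25 kept the sign and passed where they had not, and 67 changed sign. The log2 fold changes that changed sign were, with FPKM, Ntrk3 0.45, Dlg3 0.34, Kcnn2 0.48, Hspe1 0.12, Becn1 0.74, Srsf3 0.50, Pdgfrb 0.12, Rxrb 0.64, Rgs8 0.60, Crem 1.10, Tmem53 0.30, Lrrfip2 0.15, Elovl1 0.41, Pou3f3 0.83, Fam193b 1.45, Hax1 0.35, Septin10 0.36, Reep2 0.31, Nr4a2 0.033, Arntl 0.20 and Mt3 0.50. With TPM they were Ntrk3 0.062, Kcnn2 0.11, Becn1 0.33, Srsf3 0.096, Rxrb 0.24, Rgs8 0.23, Crem 1.02, Tmem53 0.0087, Elovl1 0.014, Pou3f3 0.44, Fam193b 1.11, Septin10 0.084 and Mt3 0.088. With the factor they were U2 -0.021, Mir3074 -0.23, Mir3597-2 -0.22, Ccdc152 -0.066, SNORA70 -0.020, Mir568 0.32, Mir3072 0.14 and Mir138-2 0.031. With these libraries left out they were U2 -0.11, Mir3074 -0.064, Mir3597-2 -0.059, Ccdc152 -0.14, SNORA70 -0.19, Mir770 0.26, Mir568 0.28, Mir3072 0.21 and Mir138-2 0.048. With the tRNA share they were U2 -0.083, Mir3074 -0.27, Mir3597-2 -0.22, Ccdc152 -0.092, SNORA70 -0.045, Mir770 0.0024, Mir568 0.36, Mir3072 0.17 and Mir138-2 0.063. Mt3 was at 0.0040 without both Control 49 and Low 57, and without single rats its sign changed in 6 fits, its values running from -0.062 to 0.056.

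The share of coverage in mitochondrial genes differed by 1.26 percentage points, and by 0.183 to 1.97 without single rats. Without read counts, the depth behind a low value is unknown.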

Other observations

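In 7 further gene groups, from presynaptic to GABA genes, 0 genes were called in Low against Control, and the medians are given beside that of all genes tested, 0.06 on the log2 scale. Presynaptic vesicle and SNARE genes, which release transmitter, had a median of 0.15 over 17 genes tested, and synaptic adhesion genes one of 0.12 over 15. Myelin and mature oligodendrocyte markers had a median of 0.12, with all 12 above 0, and of 0.38 with libraries 56 to 62 left out. Only Low 63 and Low 64 remain there, with summed scaled coverage of these markers of 4895 and 3318.5. Control rats were at 2561 to 3783, so Low 64 lay within their range. Glycolysis genes had a median of 0.16 over 18 genes and translation factors one of 0.13 with all 12 above 0, beside 66.5% of all genes above 0.

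AMPA and NMDA receptor subunits had a median of 0.11 over 8 genes, and GABA genes one of 0.05 over 14. The summed scaled coverage of the immediate early genes was 664 to 1210 in Control rats, 815 to 1650.5 in Low rats and 349 to 1088 in High rats, with Low 63 highest.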
